A study of Sus scrofa with 10 samples.

Results

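The 9 genes described here encode the contractile apparatus of smooth muscle or proteins that bind it: ACTA2, ACTG2, TAGLN, MYH11, CNN1, MYLK, SMTN, LMOD1 and CALD1. They were chosen by symbol, with earlier results of these data known, and each matched 1 of the 25880 gene models of the deposited table by its Ensembl identifier. The study sequenced RNA of Northeast min pigs aged 60 days in 10 libraries. Those of single tissues were heart, liver, spleen, lung, kidney, psoas major muscle, longissimus dorsi, subcutaneous adipose and ovary. Besides these 9 there was a pool, labelled as a mixture of the same organs with muscle and without adipose tissue. As there is 1 library per tissue and no replicate, differences between tissues are given as values, without an error or a p-value. The labels name no treatment or genotype and do not say how many animals gave tissue. Each tissue library had its own marker far above the other tissues: TNNT2 was at 9493 FPKM in heart, ALB at 30453 in liver, TLX1 at 44.95 in spleen and SFTPC at 6562 in lung. UMOD was at 2481 in kidney, ADIPOQ at 2074 in subcutaneous adipose, ZP3 at 171 in ovary and MYL11 at 10547 and 15165 in the 2 skeletal muscles. FPKM is a level of fragments scaled for gene length and library size.

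Smooth muscle contracts when calcium-bound calmodulin activates myosin light chain kinase, which phosphorylates the regulatory light chain of myosin and lets the myosin pull on actin filaments. Calponin, caldesmon, transgelin and smoothelin bind the actin filaments, and leiomodin helps them to form. These genes are switched on together by serum response factor with myocardin-related coactivators. In the tissues sampled here, smooth muscle lies in blood vessel walls, in the airways of the lung, in the ovarian stroma and in the capsule and trabeculae of the spleen, which are muscular in the pig. Myofibroblasts and pericytes use some of the same genes.

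Spleen had the highest level of 8 of the 9 genes, and ovary had the highest level of CALD1. Among all genes detected at 1 FPKM or more in at least 1 tissue, 18.9% were highest in spleen and 28.7% in ovary. The summed level of the 9 genes was 1412 FPKM in spleen, 767 in ovary, 669 in lung and 328 in subcutaneous adipose. It was 246 in psoas major, 202 in heart, 182 in kidney, 160 in longissimus dorsi and 125 in liver. The 9 genes therefore took 0.425% of the summed FPKM of the spleen library, 0.249% of ovary, 0.222% of lung and 0.0369% of liver. In whole tissue, fewer cells of a type and less RNA per cell cannot be told apart. With the libraries rescaled by median-of-ratios factors, by quantiles or to the same sum, the count was 7 of the 9 genes in each case, where 13.7%, 15.2% and 15.3% of all genes detected were highest in spleen. The gene no longer highest there was SMTN (highest in heart by median-of-ratios and in ovary by equal sums) or MYH11 (highest in ovary by quantiles). The summed levels above are as deposited. The median-of-ratios factors, by which values are divided, were 0.528 in longissimus dorsi, 0.558 in liver, 1.21 in kidney and 1.62 in ovary. Division by them puts the sum of kidney below that of liver, so the order of the lower tissues depends on scaling.

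**Figure D1:**
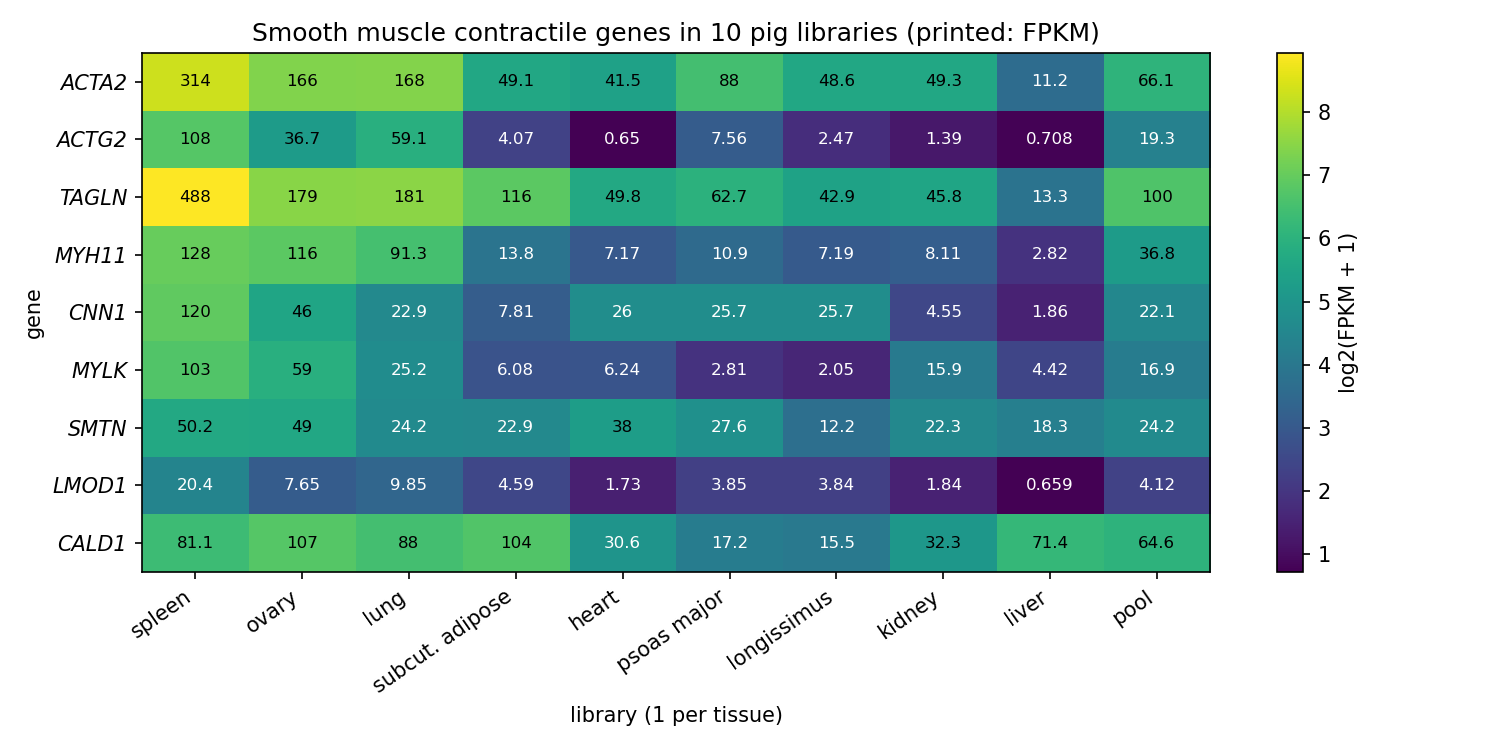
Level of each of the 9 genes (rows) in each library (columns), coloured by log2(FPKM + 1) with the FPKM printed in the cell; there is 1 library per tissue and the last column is the pool. As deposited, the spleen column holds the highest value of every row except CALD1; under other scalings MYH11 or SMTN is highest in ovary or heart.

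The actins form the thin filament. ACTA2, the alpha actin of vascular smooth muscle (ENSSSCG00000010447, Sscrofa11.1, chromosome 14, 100865313 to 100886984, minus strand), was at 314 FPKM in spleen, 168 in lung and 166 in ovary. It was at 88.0 in psoas major, 49.3 in kidney, 49.1 in subcutaneous adipose, 48.6 in longissimus dorsi, 41.5 in heart and 11.2 in liver. Spleen thus stood alone above lung and ovary, which were nearly equal, and kidney, subcutaneous adipose, longissimus dorsi and heart lay close together. ACTG2, the gamma actin of visceral smooth muscle (ENSSSCG00000008294, chromosome 3, 69094860 to 69121547, minus strand), had the widest range of the 9 genes. It was at 108 FPKM in spleen, 59.1 in lung, 36.7 in ovary, 7.56 in psoas major, 4.07 in subcutaneous adipose and 2.47 in longissimus dorsi. In kidney it was at 1.39, in liver at 0.708 and in heart at 0.650, so the highest and lowest tissue differed 165-fold.

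The 2 smooth muscle actins were therefore present in different proportions. There were 2.84 FPKM of ACTA2 per FPKM of ACTG2 in lung, 2.92 in spleen and 4.53 in ovary. The ratio was 11.6 in psoas major, 12.1 in subcutaneous adipose, 15.9 in liver, 19.7 in longissimus dorsi, 35.5 in kidney and 63.8 in heart. ACTG2 was at only 1.39 FPKM in kidney, 0.708 in liver and 0.650 in heart. The ratios of kidney, liver and heart thus rest on values near or below the filter of 1 FPKM and are imprecise. Actin genes have near-identical coding sequences, and the sources used here do not say how reads that match several of them were assigned. For comparison, the sarcomeric actin ACTA1 was at 10454 FPKM in psoas major, 20549 in longissimus dorsi and 3653 in heart, and the cardiac actin ACTC1 at 3517 in heart and 217 in psoas major. The ACTA2 and ACTG2 levels of psoas major, longissimus dorsi and heart are uncertain for that reason. In spleen, lung and ovary ACTA1 was below 1 FPKM and ACTC1 at 7.387, 1.4995 and 1.3106. The cytoplasmic actin genes were high there, with ACTB at 1009, 556 and 354 FPKM and ACTG1 at 564, 620 and 699. The ACTA2 and ACTG2 levels of spleen, lung and ovary are therefore not free of this uncertainty.

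MYH11, the smooth muscle myosin heavy chain, is the usual marker of the lineage (ENSSSCG00000000146, chromosome 3, 7002706 to 7143100, plus strand). It was at 128 FPKM in spleen, 116 in ovary, 91.3 in lung and 13.8 in subcutaneous adipose. In psoas major it was at 10.9, in kidney at 8.11, in longissimus dorsi at 7.19, in heart at 7.17 and in liver at 2.82. The 3 highest tissues were thus within 1.41-fold of each other, and subcutaneous adipose came far below them. The order of spleen and ovary was not stable, since quantile normalisation gave -0.0047 on the log2 scale for spleen minus ovary. MYH11 overlaps NDE1, a centrosomal gene on the opposite strand, over 17180 bases. NDE1 was at 17.1 FPKM in spleen, 19.3 in ovary and 19.7 in lung, and the sources used here do not say whether counting used strand.

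MYLK encodes the kinase that starts contraction, and also a longer non-muscle kinase and telokin, which the gene-level value does not separate (ENSSSCG00000011867, chromosome 13, 136619308 to 136809673, plus strand). It was at 103 FPKM in spleen, 59.0 in ovary, 25.2 in lung and 15.9 in kidney. It was at 6.24 in heart, 6.08 in subcutaneous adipose, 4.42 in liver, 2.81 in psoas major and 2.05 in longissimus dorsi. Spleen stood 4.07-fold above lung but 1.74-fold above ovary, and the skeletal muscles held the lowest levels. Kidney had 1.96 FPKM of MYLK per FPKM of MYH11, the highest such ratio of the 9 tissues. Liver followed at 1.57 and heart at 0.871, against 0.798 in spleen, 0.506 in ovary and 0.276 in lung.

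Among the proteins that bind thin filaments, TAGLN had the highest level of the 9 genes in spleen. It encodes transgelin, also called SM22 (ENSSSCG00000015073, chromosome 9, 44560785 to 44567385, plus strand), and was at 488 FPKM in spleen, 181 in lung, 179 in ovary and 116 in subcutaneous adipose. It was at 62.7 in psoas major, 49.8 in heart, 45.8 in kidney, 42.9 in longissimus dorsi and 13.3 in liver. Lung and ovary were again nearly equal, as for ACTA2, and spleen was 2.70-fold above lung. TAGLN overlaps PCSK7, a proprotein convertase gene on the opposite strand, over 2967 of its 6601 bases. PCSK7 was at 54.6 FPKM in spleen, 20.9 in lung and 21.99 in ovary, far below TAGLN in each. Its level was 2.61-fold higher in spleen than in lung, close to that of TAGLN. Whether counting used strand is not stated, so the part of PCSK7 reads in the TAGLN value is not known.

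CNN1, which encodes calponin, an inhibitor of the myosin ATPase (ENSSSCG00000013614, chromosome 2, 70183235 to 70190758, plus strand), differed most between spleen and lung. It was at 120 FPKM in spleen, 46.0 in ovary, 26.0 in heart, 25.7 in longissimus dorsi, 25.7 in psoas major and 22.9 in lung. It was at 7.81 in subcutaneous adipose, 4.55 in kidney and 1.86 in liver. Spleen stood 2.62-fold above ovary and 5.25-fold above lung. The 3 striated tissues were at about the level of lung for this gene, whereas for MYH11 each was far below lung. Under median-of-ratios scaling CNN1 stood above lung by 0.97 on the log2 scale in heart, 1.26 in psoas major and 1.63 in longissimus dorsi. An unnamed gene model on the same strand overlaps CNN1 over 7524 bases, its whole span, and was at 0.104 FPKM or less in every tissue. There were 3.63 FPKM of CNN1 per FPKM of MYH11 in heart and 3.58 in longissimus dorsi, against 0.251 in lung.

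LMOD1 encodes leiomodin 1, which nucleates actin filaments in smooth muscle (ENSSSCG00000031201, chromosome 10, 24164792 to 24193875, minus strand), and it was the lowest of the 9 genes in spleen. It was at 20.4 FPKM in spleen, 9.85 in lung, 7.65 in ovary and 4.59 in subcutaneous adipose. It was at 3.85 in psoas major, 3.84 in longissimus dorsi, 1.84 in kidney, 1.73 in heart and 0.659 in liver. The order of the 4 highest tissues was that of TAGLN, with spleen 2.07-fold above lung.

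SMTN and CALD1 were spread more evenly. SMTN encodes smoothelin, a marker of contractile smooth muscle cells (ENSSSCG00000010017, chromosome 14, 47879317 to 47902699, plus strand). It was at 50.2 FPKM in spleen, 49.0 in ovary, 38.0 in heart, 27.6 in psoas major and 24.2 in lung. It was at 22.9 in subcutaneous adipose, 22.3 in kidney, 18.3 in liver and 12.2 in longissimus dorsi. The highest and lowest tissue differed 4.13-fold, and spleen and ovary were nearly level, with their order turned when the libraries were scaled to the same sum. An unnamed gene model on the opposite strand overlaps SMTN over 231 bases and was at 4.56 FPKM in spleen and 7.14 in ovary.

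CALD1 encodes caldesmon, with a heavy form of smooth muscle and a light form of many other cells that the gene-level value does not separate (ENSSSCG00000016535, chromosome 18, 14267959 to 14478503, minus strand). It was at 107 FPKM in ovary, 104 in subcutaneous adipose, 88.0 in lung, 81.1 in spleen and 71.4 in liver. It was at 32.3 in kidney, 30.6 in heart, 17.2 in psoas major and 15.5 in longissimus dorsi. It was the only one of the 9 genes with liver among its 5 highest tissues, and under median-of-ratios scaling liver became its highest tissue. CALD1 made up 57.3% of the summed level of the 9 genes in liver and 31.7% in subcutaneous adipose, against 5.74% in spleen. ACTA2 and TAGLN together made up 56.8% of that sum in spleen, 52.1% in lung, 44.98% in ovary and 19.7% in liver.

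**Figure D2:**
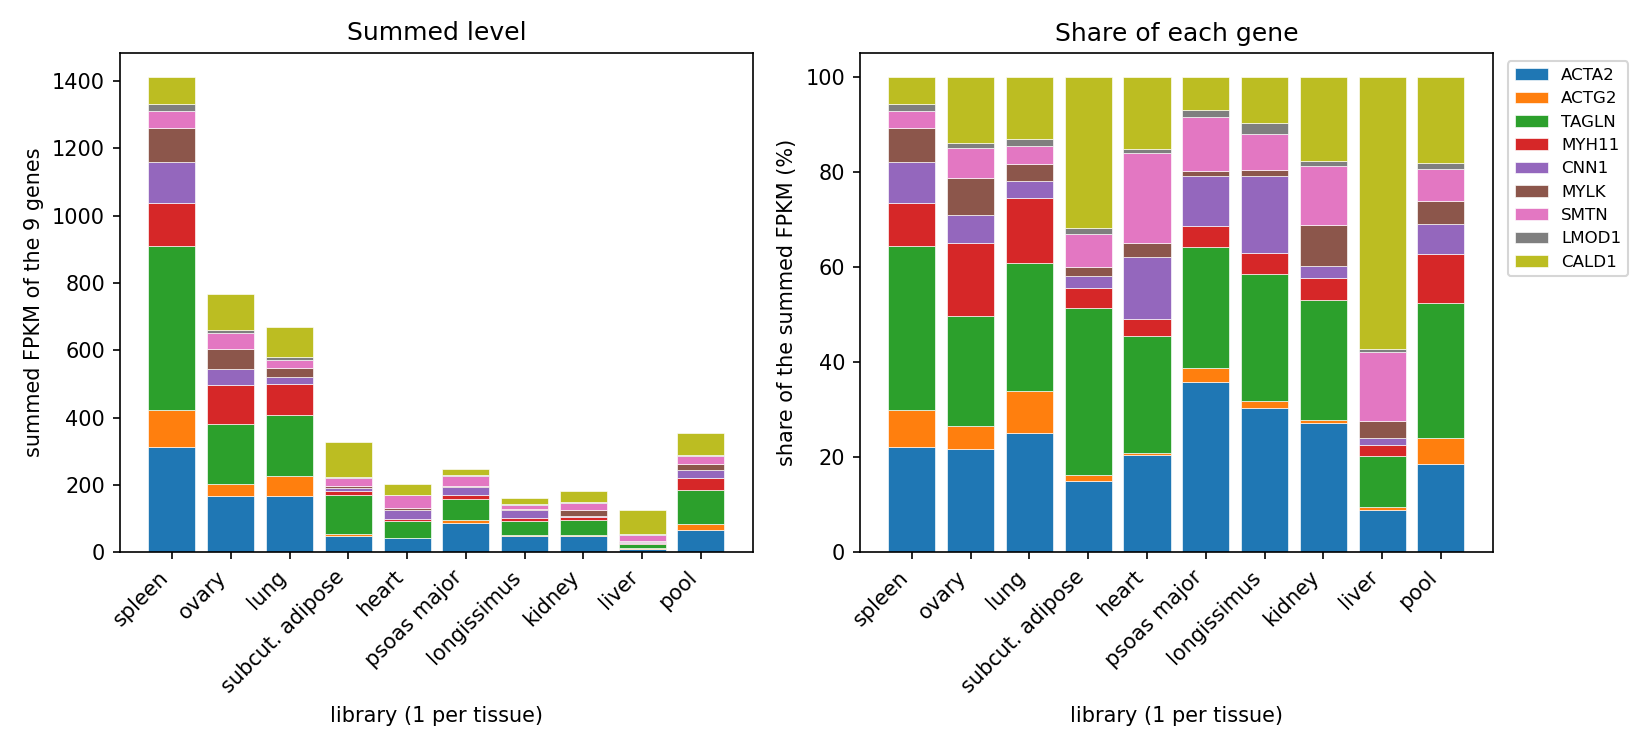
Left, the summed FPKM of the 9 genes in each library, stacked by gene; right, the same as shares of the sum in percent. The spleen bar reaches 1412 FPKM and the liver bar 125, and CALD1 takes 57.3% of the liver bar against 5.74% of the spleen bar.

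Spleen was then compared with lung and ovary gene by gene. A gene counted as higher when its log2(FPKM + 1) was greater by at least 1, which is 2-fold, among genes at 1 FPKM or more in either library. All 9 genes passed that filter in every comparison. Against lung, 4 of the 9 genes were higher in spleen, while 8.79% of 13463 genes were. These were CNN1 (difference of 2.34 on the log2 scale), MYLK (1.98), TAGLN (1.43) and SMTN (1.02). LMOD1 lay just below the threshold at 0.98, followed by ACTA2 at 0.90, ACTG2 at 0.85 and MYH11 at 0.49. CALD1 was at -0.12 and turned to 0.0013 under median-of-ratios scaling. The median of the 9 genes was 0.98, against -0.004 for all genes tested.

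Against ovary, 4 of the 9 genes were at least 2-fold higher in spleen, while 13.9% of 14129 genes were. They were ACTG2 (1.52), TAGLN (1.45), CNN1 (1.37) and LMOD1 (1.31). ACTA2 differed by 0.91 and MYLK by 0.79. MYH11 differed by 0.14 and SMTN by 0.04, and each of these small differences turned negative under a scaling alternative. CALD1 was at -0.40. The median of the 9 genes was 0.91, against -0.25 for all genes. TAGLN and CNN1 passed 2-fold in both comparisons, and they were also the members at least 2-fold above every one of the 8 other tissues. That rule was met by 3.51% of the genes detected. Under median-of-ratios scaling CNN1 stood above longissimus dorsi by 0.80 and so no longer met it, while TAGLN did. The comparisons share the spleen library.

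Lung and ovary were the next highest tissues for 6 of the 9 genes, and spleen, lung and ovary held the 3 highest places for 18.9% of the genes detected. The other 3 genes were CNN1 and SMTN, with heart next after spleen and ovary, and CALD1, with subcutaneous adipose next after ovary. Under median-of-ratios scaling psoas major was next after spleen for ACTA2, and longissimus dorsi for CNN1 and LMOD1. Ovary and lung differed from each other by gene. MYLK was higher in ovary by 1.196 on the log2 scale and was the only member past 2-fold on this scale, where 19% of all genes tested were. SMTN at 0.98 and CNN1 at 0.97 were just under it, and quantile normalisation took both past it. ACTG2 was higher in lung, at -0.67 for ovary minus lung, and LMOD1 was at -0.33, with the same sign under every scaling. ACTA2 at -0.01 and TAGLN at -0.02 were level, with a positive sign under quantile normalisation.

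As deposited, the remaining tissues lay further from spleen. The 9 genes were at least 2-fold higher in spleen in 8 cases against subcutaneous adipose, where 22.9% of all genes tested were, with CALD1 as the exception. The count was also 8 against heart (34.7% of all genes) and psoas major (44%), with SMTN as the exception in both. It was 9 against longissimus dorsi (52.7%) and kidney (21%). Against liver it was 8 (52.5%), with CALD1 as the exception. The median difference of the 9 genes was 2.65 against subcutaneous adipose, 2.97 against heart, 2.18 against psoas major, 2.67 against longissimus dorsi, 2.91 against kidney and 4.69 against liver. The medians of all genes tested were 0.34, 0.63, 0.85, 1.07, 0.15 and 1.05 in the same order. In the striated muscles and liver most genes were thus lower than in spleen. Under median-of-ratios scaling, which brought the medians of all genes to between -0.04 and 0.03, the counts were 7 against subcutaneous adipose (16.2% of all genes), heart (18.8%), psoas major (19.8%) and liver (19.8%), 5 against longissimus dorsi (20.4%) and 8 against kidney (17.3%). Under that scaling CALD1 was at -1.13 for spleen minus liver and SMTN at -0.30 for spleen minus heart and -0.17 for spleen minus psoas major. The median of the 9 genes was then 1.23 against psoas major and 1.27 against longissimus dorsi, close to 1.06 against lung and 1.11 against ovary. Against subcutaneous adipose, heart, kidney and liver the medians stayed larger, at 2.29, 2.36, 2.63 and 3.41.

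Over all 8 other tissues, spleen stood above their mean log2 level by a median of 2.89 for the 9 genes and 0.25 for all genes detected. ACTG2 had the largest such difference at 4.12, followed by MYLK at 3.40, MYH11 at 3.01, CNN1 at 2.99 and TAGLN at 2.89. ACTA2 was at 2.40, LMOD1 at 2.26, SMTN at 0.99 and CALD1 at 0.81.

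**Figure D3:**
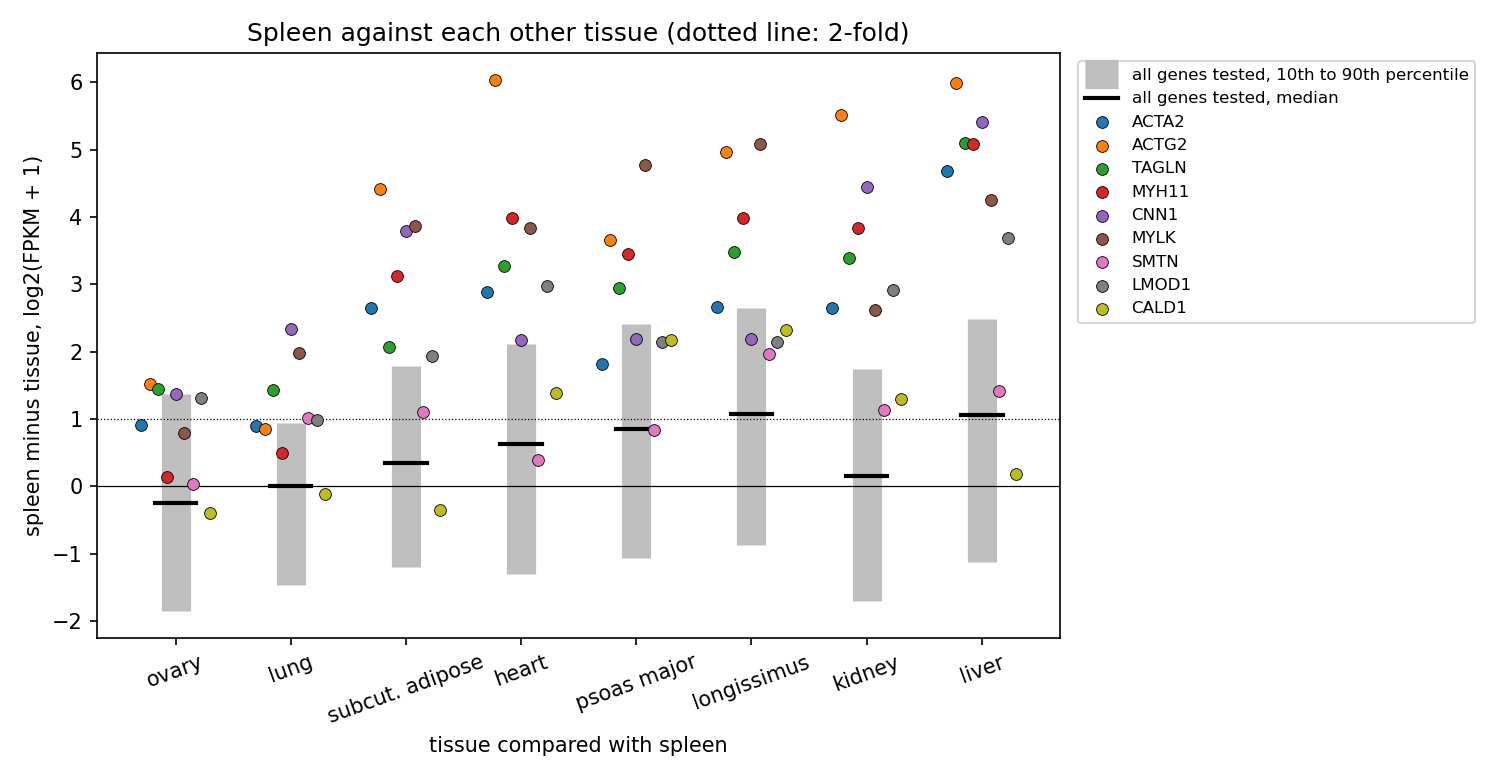
Spleen minus each other tissue in log2(FPKM + 1) for the 9 genes (points), with the median (black bar) and the 10th to 90th percentile (grey band) of all genes tested; the dotted line marks 2-fold. Between 3 (ovary) and 7 (subcutaneous adipose, heart, kidney, liver) of the 9 points lie above the grey band, and CALD1 lies below 0 against ovary, lung and subcutaneous adipose; against lung it turns to 0.0013 under median-of-ratios scaling.

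Across the 9 tissues, the profile of a gene was compared with the mean profile of the other 8 by Pearson's r on the log2 scale, as a description with 9 points that share their libraries. MYH11 lay closest at 0.97, followed by TAGLN at 0.95, ACTG2 at 0.93, ACTA2 at 0.92 and LMOD1 at 0.91. MYLK was at 0.85, CNN1 at 0.73, SMTN at 0.69 and CALD1 at 0.46. Among 12156 other genes at 5 FPKM or more in some tissue, the 10 with the profile most like the mean of the 9 had r of 0.976 to 0.987. They were KCTD13, MYBL2, RGS2, EZH2, REV1, VRK1, NCAPG2, TRIP4, RAB4B and MARS1. RGS2, a regulator of signalling from G protein-coupled receptors, stood at 11.001 FPKM in spleen, 8.41 in ovary and 8.10 in lung. MYBL2 and EZH2, which act in dividing cells, stood at 25.6 and 17.9 in spleen. All 10 genes were highest in spleen, which was also the highest tissue of the mean profile they were chosen to match. The choice of these genes depended on the measure: 1 of the 10 was also among the 10 most like genes by Spearman's rho and 3 were under median-of-ratios scaling. By Pearson's r, 365 genes (3.003% of those compared) reached 0.9.

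The partners of the proteins encoded by the 9 genes were counted by the same 2-fold rule. Of 24 light chains, tropomyosins and cytoskeletal proteins, 23 were tested against lung, and 6 were at least 2-fold higher in spleen and 4 at least 2-fold lower, where 8.79% and 16.4% of all genes tested were. Against ovary 8 of 24 were higher and 1 was lower, with 13.9% and 25.4% of all genes. The median difference was 0.22 against lung and 0.42 against ovary. ACTN1, the alpha actinin of dense bodies and focal contacts, was at 217 FPKM in spleen, 63.1 in lung and 54.9 in ovary, and it was the 1 gene of this list at least 2-fold above every other tissue in spleen. DES, which encodes the intermediate filament desmin, was at 94.5 in spleen, 29.2 in lung and 22.7 in ovary, but at 935 to 1487 in the striated tissues. The tropomyosin TPM2 was at 195 in spleen, 90.4 in lung and 82.0 in ovary, and TPM1 at 133, 123 and 74.9. MYL6, the essential light chain shared by smooth muscle and non-muscle myosin, was at 743, 592 and 370.

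The genes that control light chain phosphorylation were counted in the same way. Of 21 genes tested, none was at least 2-fold higher in spleen than in lung, 4 were lower (8.79% and 16.4% of all genes), and the median difference was -0.19. Against ovary 3 were higher and 1 was lower (13.9% and 25.4% of all genes), with a median of 0.07 that turned to -0.04 with equal sums. CALM2, a calmodulin gene, was at 300 FPKM in spleen, 229 in lung and 261 in ovary. PPP1CB, the catalytic subunit of myosin phosphatase, was at 39.6 in spleen, 89.8 in lung and 63.2 in ovary, and RHOA, which inhibits that phosphatase through ROCK kinases, at 129, 148 and 95.2.

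Channels, receptors and transcription factors of smooth muscle were lower in spleen than in lung by their medians. Of 11 channel and pump genes tested against lung, none was at least 2-fold higher in spleen and 3 were lower (8.79% and 16.4% of all genes), with a median of -0.41. STIM1, a sensor of stored calcium, was the 1 gene of that list highest in spleen, at 13.9 FPKM against 9.70 in lung and 8.48 in ovary. ITPR1, the calcium release channel, was at 11.7, 10.3 and 14.2, ATP2A2 at 14.5, 36.0 and 23.9, and ATP2B4 at 9.49, 16.4 and 7.64. Of 9 receptor genes tested against lung, 2 were higher in spleen and 4 lower (8.79% and 16.4% of all genes). P2RX1, the ATP-gated channel of smooth muscle and platelets, was at least 2-fold above every other tissue in spleen, at 4.80 FPKM against 1.38 in ovary and 1.13 in lung. The endothelin receptors were lower in spleen, with EDNRA at 4.62 against 13.5 in lung and EDNRB at 1.79 against 31.6. Against ovary 1 receptor gene of 9 was higher in spleen and 6 were lower, where 13.9% and 25.4% of all genes were, among them TBXA2R, the thromboxane receptor, at 3.72 against 10.6, and AGTR1, the angiotensin receptor, at 2.98 against 7.56.

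Of 16 regulators tested against lung, 1 was at least 2-fold higher in spleen and 5 were lower (8.79% and 16.4% of all genes), with a median of -0.75. Against ovary 2 were higher and 6 lower (13.9% and 25.4%), with a median of 0.30. FHL2, a coregulator of serum response factor, was the gene higher than in lung, at 55.6 FPKM in spleen, 3.66 in lung and 25.9 in ovary, and it was highest in heart at 198.4. TEAD1 was at 2.28 in spleen, 8.34 in lung and 9.69 in ovary, MEF2A at 8.13, 14.7 and 7.19, and MEF2D at 11.08, 8.68 and 7.49. Named after its values were seen, MYOCD, the coactivator myocardin, was at 0.323 FPKM in spleen, 4.08 in ovary, 1.28 in lung and 6.88 in heart. MRTFA, a related coactivator also named after its values were seen, was at 21.7 in spleen, 15.6 in ovary and 10.8 in lung, whereas its paralog MRTFB ran the other way at 2.63, 9.21 and 7.83.

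**Figure D4:**
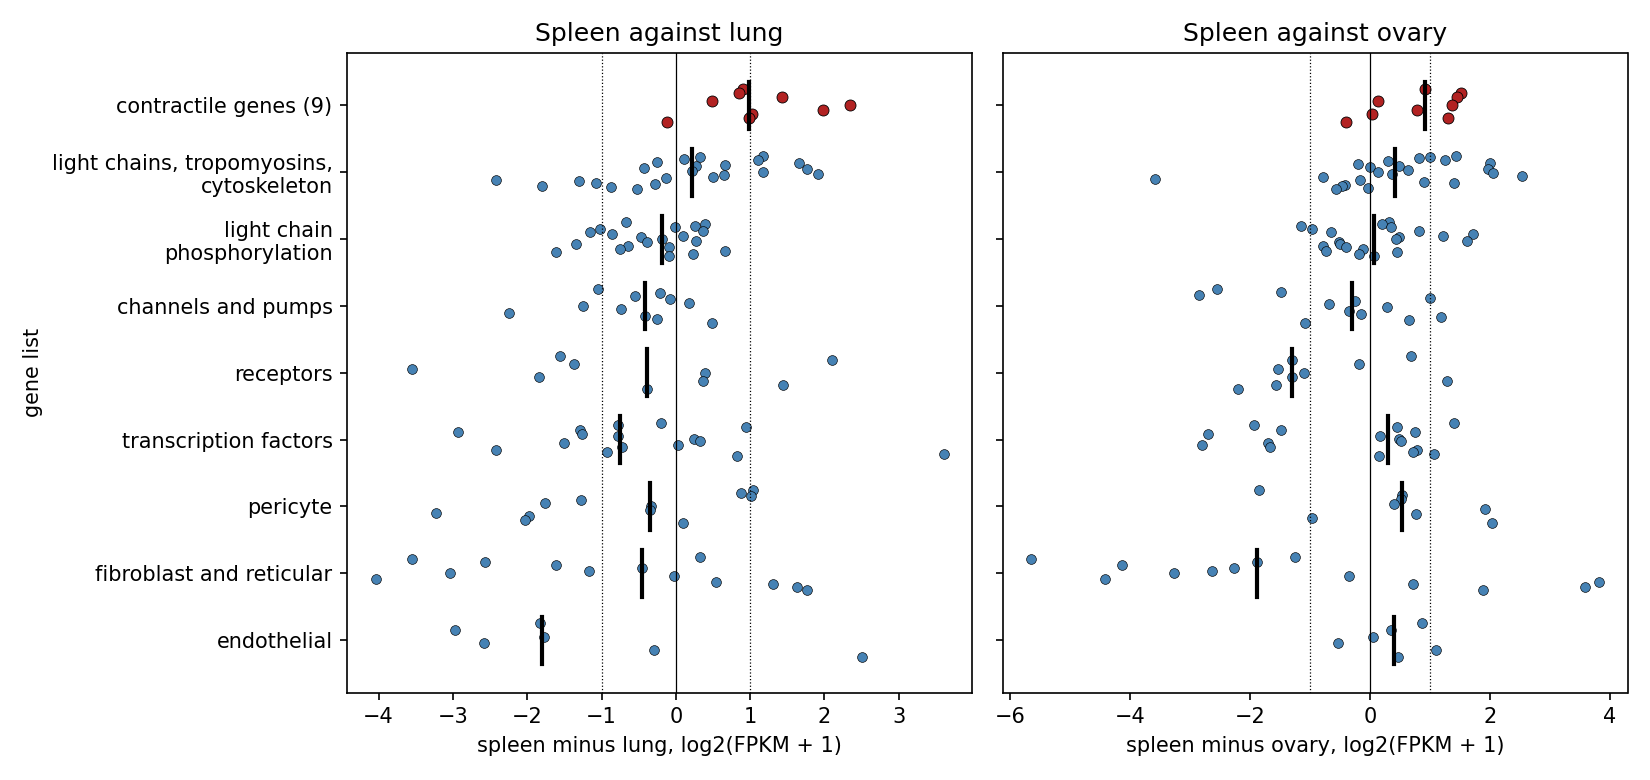
Spleen minus lung (left) and spleen minus ovary (right) in log2(FPKM + 1) for the 9 contractile genes (red) and for members of 8 related lists (blue) at 1 FPKM or more in either library; black bars are medians, dotted lines mark 2-fold and the height within a list has no meaning. The contractile genes have medians of 0.98 and 0.91, while the light chain phosphorylation list has medians of -0.19 and 0.07, the last turning to -0.04 with libraries scaled to equal sums.

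Other cell types that use some of these genes were measured with their own markers. The summed level of 11 pericyte genes was 131 FPKM in spleen, 181 in lung and 104 in ovary, with 2 genes at least 2-fold higher in spleen than in lung and 5 lower (8.79% and 16.4% of all genes). None of the 11 was higher by that rule with the libraries scaled to equal sums. PDGFRB, the pericyte and fibroblast receptor, was at 53.4 in spleen, 25.9 in lung and 36.9 in ovary, whereas MCAM was at 17.1, 60.7 and 12.8, ABCC9 at 17.7, 22.7 and 3.93 and RGS5 at 4.30, 1.58 and 18.2. The 13 fibroblast and reticular cell genes summed to 801 FPKM in spleen, 1735 in lung, 5926 in ovary and 11198 in subcutaneous adipose. The collagen gene COL1A1 was at 80.7 in spleen, 248 in lung and 1443 in ovary, and DCN at 20.01, 245 and 1058. The chemokine gene CXCL13 and the cytokine gene TNFSF11, made by lymphoid stromal cells among others, were at least 2-fold above every other tissue in spleen, at 20.3 and 2.67 FPKM. The 6 endothelial genes summed to 118 FPKM in spleen, 447 in lung and 81.1 in ovary, with CDH5 at 16.3, 135 and 12.6 and PECAM1 at 44.4, 160 and 23.7. Of these 6, 4 were at least 2-fold lower in spleen than in lung and 1 was higher (16.4% and 8.79% of all genes). KDR was at 12.2, 78.4 and 18.3 in the same order, and TIE1 at 30.9, 38.2 and 13.8. The gene higher than in lung was STAB2, a scavenger receptor of sinusoidal endothelium named after its values were seen, at 4.81 FPKM in spleen, 0.0220 in lung and 3.23 in ovary. The 8 striated muscle genes summed to 5.22 FPKM in spleen, 17.0 in lung, 24.7 in ovary and 32190 in longissimus dorsi. TNNT3 and MYL11 were listed at 0 in spleen, so the 5.22 FPKM there came from other genes of the list. The part of these cells in the levels of the 9 genes was not tested.

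Of the paralogs of the 9 genes, 9 were tested against lung, and 1 was at least 2-fold higher in spleen and 2 lower (8.79% and 16.4% of all genes). Of 11 tested against ovary, 3 were higher and 5 lower (13.9% and 25.4%). ACTB and ACTG1, the cytoplasmic actins, were at 1009 and 564 FPKM in spleen, 556 and 620 in lung and 354 and 699 in ovary. ACTB was thus also highest in spleen, by 0.86 over lung and 1.51 over ovary on the log2 scale, and ACTG1 was highest in ovary.

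In the pool the 9 genes stood at 66.1 FPKM for ACTA2, 19.3 for ACTG2, 100.01 for TAGLN, 36.8 for MYH11 and 22.1 for CNN1. MYLK was at 16.9, SMTN at 24.2, LMOD1 at 4.12 and CALD1 at 64.6. Relative to an equal-weight mean of the 7 labelled components, with the skeletal muscles averaged, the pool held 0.640 times as much in the median of the 9 genes and 0.802 times as much in the median of 13435 genes. CALD1 was the 1 member above that mean, at 1.06 times, and MYLK was lowest at 0.550 times. The proportions mixed are not stated in the sources used here, so the equal-weight mean is only a reference. The tissue markers were held in the pool to unlike degrees. ALB was at 14405 FPKM in the pool against 30453 in liver, and SFTPC at 1452 against 6562 in lung. TLX1 was at 3.55 against 44.95 in spleen, UMOD at 158 against 2481 in kidney and TNNT2 at 538 against 9493 in heart. As for the label, the ovary marker ZP3 was at 0.0924 FPKM in the pool against 171 in ovary, so this gene goes against the ovary in the pool's label. The equal-weight mean still counts ovary among its 7 components.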

How the data were processed

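The deposited table gives 1 value per gene and library, with coordinates on Sscrofa11.1. The authors' processing used TopHat2 2.1.0 and StringTie 1.2.2, per the submitters' processing notes; the role of each, the annotation release, strandedness and filters are not stated in the sources used here. Deposited values were read as FPKM, because they are not whole numbers, their sums differ between libraries (292495 to 369254) and StringTie is named; the header gives no unit. Depth was read from repeated steps in the FPKM of genes spanning 400 to 1500 bases: about 11.9 M fragments in spleen and ovary, 31.3 M in lung and 11.4 to 20.2 M in the others, uncertain by a factor of 2.

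Symbols came from Ensembl identifiers (14857 genes, among them all 9 members) and otherwise from RefSeq genes that overlapped by at least 0.5 of the longer gene, best match both ways. Levels were compared as log2(FPKM + 1), over genes at 1 FPKM or more, which understates folds of low genes. With 1 library per tissue no test was run; a gene was called at 2-fold, beside the share of all genes called. Genes named were the 9 members, the 4 most abundant of each list, those at least 2-fold above all other tissues in spleen, and the 10 most like genes. One gene that this rule names is not reported here. The members and lists were chosen with earlier results of these data known. The procedures were tested on simulated data. Alternatives varied the pseudocount (0.1 and 5), filter, threshold, scaling, treatment of the muscles and correlation. Python 3.11.15, numpy 2.4.6, pandas 2.3.3 and matplotlib 3.10.9 were used.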

Additional observations from a re-analysis of the deposited data

How the results depend on the processing

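With 1 library per tissue, the spread between animals cannot be given, and depth is known only as an estimate, about 11.9 M fragments in spleen and ovary and 31.3 M in lung, each uncertain by a factor of 2. The medians of the 9 genes against lung, ovary and the other 8 tissues, and the number of genes highest in spleen, kept their direction and moved by less than 1.5-fold under every alternative. The threshold moved the counts most: at 1.5-fold 7 genes were higher in spleen than in lung (18.4% of all genes), and at 4-fold 1 was (CNN1; 1.89%), while at 4-fold 0 of the 9 were higher in spleen than in ovary (5.92%). As no test was run, no other tool gives a count. At 2-fold the count ran from 3 to 6 against lung and from 4 to 5 against ovary over the pseudocounts, filters and scalings. Of the 126 comparisons of single members with lung or ovary under an alternative, 3 reversed: CALD1 against lung (0.0013, median-of-ratios), MYH11 against ovary (-0.0047, quantiles) and SMTN against ovary (-0.074, equal sums). Comparisons of spleen with the other tissues are not in that number. Among them, median-of-ratios scaling reversed SMTN against heart (-0.30) and psoas major (-0.17) and CALD1 against liver (-1.13). The most like genes shared 3 of 10 with the median-of-ratios set and 1 of 10 with the Spearman set. The cause was not tested. No paired analysis was possible because each tissue has 1 library and the labels give no replicate numbers.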
